A study of Homo sapiens with 35 samples.

Results

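The 94 protein-coding genes on chromosomes 1 to 22 whose symbol begins with KCN were chosen by that prefix alone, out of 19126 autosomal protein-coding genes in a RefSeq annotation of GRCh38.p14. They hold the pore-forming subunits of the potassium channels and the partner proteins that the same naming scheme covers. Of the 94, 29 encode voltage-gated pore subunits, 10 electrically silent pore subunits, 8 calcium- or sodium-activated pore subunits, 16 inward rectifiers and 15 two-pore channels. The other genes encode partners: 3 KCNAB, 4 KCNE, 4 KCNIP and 4 KCNMB subunits and the single gene KCNRG.

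Potassium channels let potassium leave a cell down its gradient and so hold or restore the negative voltage across the membrane. Voltage-gated channels open when that voltage falls, calcium-activated ones when calcium rises inside the cell, inward rectifiers conduct best near the resting voltage, and two-pore channels carry the steady leak. In blood cells they are known for setting the driving force for calcium entry in lymphocytes, for the loss of water from red cells and for potassium efflux from activated macrophages, and many other members are best known from nerve, heart, kidney and pancreas.

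Open chromatin was measured by ATAC-seq, in which a transposase cuts accessible DNA and leaves sequencing adapters there, in blood progenitors derived from the established human embryonic stem cell line H1. The labels describe 35 libraries in 18 groups of 1 to 3, while the design text counts 44: 12 libraries of a line named doxee17 with doxycycline, which switches on ectopic MYC, 11 of doxee17 without it (both batch 1) and 12 of H1 without it (batch 2), over 6 days from day 10 to day 20. The doxycycline dose, the construct carried by untreated doxee17 and whether that line is 1 clone are not given in the sources used here. The values are a single list of 308732 peaks, of which 301177 are autosomal, that names no library. Treated and untreated cells, lines and days were therefore not compared, and the spread between replicates is unknown.

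Each peak carries the authors' fold enrichment, the pileup at its summit (its highest point) over a constant background. All fold values below are the authors', on a linear scale, with exact Poisson 95% intervals that cover counting error only. The weakest peak had 1.32-fold (1.102 to 1.57) and the median peak 3.46-fold (3.10 to 3.86). Markers of the labelled cell type had open ends: SPI1 stood at 109-fold, RUNX1 at 80.9, MYB at 37.9 and CD34 at 14.8, while TAL1 and GATA2 had no summit within 1 kb of an end but an end under a peak of 105- and 54.9-fold. Among pluripotency markers, POU5F1 had 1.93-fold and NANOG 2.42, but SOX2 had 17.6. Among neuronal markers, DCX had no end summit and RBFOX3 had 1.57-fold, while SYP had 67.1 and SNAP25 33.5.

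Most potassium channel genes had a peak at an end, but a weak one. A summit lay within 1 kb of a gene end in 76 of 94 members (80.9%), against 83.7% of all autosomal coding genes. An end peak of at least 20-fold was found in 31 members (33.0%) against 60.2%, and one of at least 100-fold in 3 members (3.19%) against 30.2%. With 0 for a gene without a summit, the median end fold was 9.19 (interquartile range 3.47 to 22.1) against 46.9 (3.95 to 115) over all coding genes. The remaining members fell into 36 with an end peak of 5- to 20-fold, 9 under 5-fold and 18 with no summit at an end. Only 9 members (9.57%) lay above the coding median, which 50% of all coding genes do by definition. At 100-fold the share of members rose to 7.45% (32.9% of coding genes) with a 2.5 kb window and to 6.38% (33.1%) with any overlap of peak and window, and it fell to 2.13% (25.1%) with the nearest end only. These are descriptions of 1 pooled list, and no test was made of the differences.

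**Figure D1:**
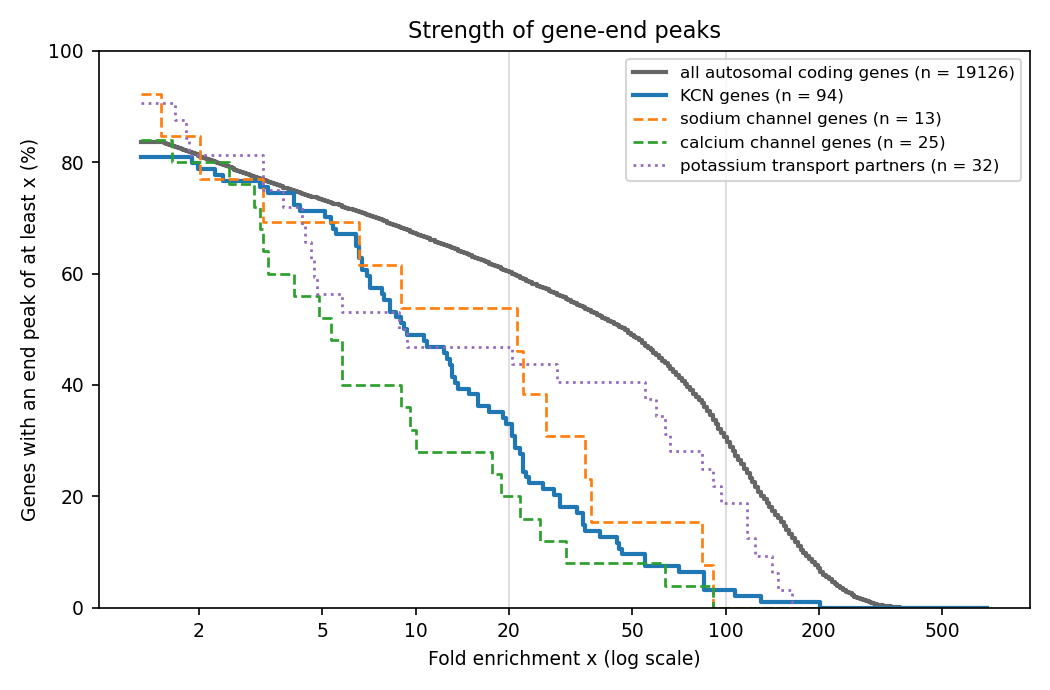
Share of genes (vertical axis, %) whose strongest end peak reached at least the fold on the horizontal axis (log scale), for KCN genes and for all autosomal coding genes, with sodium channels, calcium channels and potassium transport partners. The KCN and coding curves start close together at 80.9% and 83.7% and part as the fold rises, to 33.0% and 60.2% at 20-fold and to 3.19% and 30.2% at 100-fold.

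The 3 genes above 100-fold came from 3 different subfamilies. KCNAB2, a cytoplasmic β subunit of voltage-gated channels, was highest at 201-fold (198 to 204), with a peak of 4527 bp on chromosome 1 (5990939 to 5995465) whose summit lay 130 bp before its start. That summit also lay 121 bp from an end of NPHP4, a gene of the primary cilium, so the peak cannot be given to KCNAB2 alone. Counted only for the nearest end, it left KCNAB2 with 6.31-fold. KCNN3, a small-conductance calcium-activated channel, had 128-fold (126 to 131) at its start on chromosome 1 (154697455 to 154870281). KCNK5, a two-pore channel opened by alkaline pH, had 107-fold (105 to 109) at its start on chromosome 6 (39188971 to 39229475) under a peak of 8759 bp. No other coding gene ended within 1 kb of the KCNN3 or KCNK5 summit.

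The 250 bases before these starts are shown because they underlie the strongest member peaks, as RefSeq's GRCh38.p14 promoter table gives them, 5′ to 3′ on the coding strand: KCNAB2 (chr1:5992426-5992675, plus strand), KCNN3 (chr1:154870282-154870531, minus strand) and KCNK5 (chr6:39229476-39229725, minus strand). Capitals mark matches on either strand to the motifs searched, which here are GC boxes (GGGCGG).
KCNAB2: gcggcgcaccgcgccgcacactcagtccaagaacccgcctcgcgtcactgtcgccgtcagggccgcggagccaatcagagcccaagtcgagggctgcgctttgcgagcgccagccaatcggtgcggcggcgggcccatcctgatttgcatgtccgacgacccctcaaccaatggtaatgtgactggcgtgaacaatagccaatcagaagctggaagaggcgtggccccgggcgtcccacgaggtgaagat
KCNN3: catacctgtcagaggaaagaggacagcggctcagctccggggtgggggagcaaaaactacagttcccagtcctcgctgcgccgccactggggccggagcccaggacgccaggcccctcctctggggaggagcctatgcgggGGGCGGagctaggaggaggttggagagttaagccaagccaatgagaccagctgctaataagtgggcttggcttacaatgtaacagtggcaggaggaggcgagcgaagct
KCNK5: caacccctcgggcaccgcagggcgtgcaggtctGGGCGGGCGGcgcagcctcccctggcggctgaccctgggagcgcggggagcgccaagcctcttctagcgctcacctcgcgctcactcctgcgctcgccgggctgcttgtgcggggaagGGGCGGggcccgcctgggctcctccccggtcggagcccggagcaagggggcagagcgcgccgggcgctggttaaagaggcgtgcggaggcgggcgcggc
KCNAB2 had none of the motifs searched and a CpG observed-to-expected ratio of 1.03. KCNN3 had 1 GC box and a ratio of 0.474, and KCNK5 had 3 GC boxes and a ratio of 0.839. The strongest member peaks thus lay over starts that differed widely in CpG content.

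Among the 29 voltage-gated pore genes, 27 had an end summit, 11 reached 20-fold and none reached 100-fold, with a median of 12.4. KCNC4, a fast-inactivating channel, was highest at 85.3-fold (83.4 to 87.2), followed by KCNH1, of the ether-à-go-go family, at 83.8 (82.0 to 85.7) and its relative KCNH4 at 69.3. The intervals of KCNC4 and KCNH1 overlapped, and that of KCNH4 did not reach them. With a window of 2.5 kb or any overlap, KCNH4 took 233-fold, above the 201-fold of KCNAB2, from a summit 1763 bp from its 3′ end and 139 bp from the end of another coding gene. KCNH had the highest median of the voltage-gated families, 24.8, with 5 of 8 members at 20-fold or more: beside KCNH1 and KCNH4 these were KCNH6 at 38.9, KCNH2, the channel of the cardiac rapid delayed rectifier current, at 28.9 (no summit within 0.5 kb), and KCNH3 at 20.7. KCNH5 had 8.17-fold, KCNH7 had 4.19 and KCNH8 had no end summit.

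The KCNQ family, whose members carry slow currents in heart and nerve, had 3 of 5 genes at 20-fold or more and a median of 20.1. KCNQ5 stood at 34.1 and KCNQ1 at 20.1, the latter at a summit shared with TRPM5, while KCNQ3 had 17.1. The KCNA family differed from both. None of its 8 Shaker-type genes reached 20-fold, and 7 lay between 5.22-fold (KCNA1) and 19.6-fold (KCNA2). KCNA3, the main voltage-gated channel of T cells, had 7.71 (7.16 to 8.29), and KCNA10 had no end summit. KCNA4, KCNA5, KCNA6 and KCNA7 lay between 6.33 and 6.57. KCNC1 (20.5) lay just above the 20-fold line and KCNA2 just below it, while KCNB2 had 12.3-fold and KCNC2 10.6.

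Electrically silent subunits open no channel alone and modify KCNB channels. Of these 10 genes, 8 had an end summit, 2 reached 20-fold and the median was 6.84. KCNS3 had 22.9-fold and KCNS2 22.0, so both genes over the line belonged to KCNS, whose other gene KCNS1 had 12.96. KCNG1 had 18.8-fold, while KCNG2, KCNF1, KCNG4 and KCNV1 lay between 4.01 and 7.11. KCNG3 and KCNV2 had no end summit.

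Of the 8 calcium- or sodium-activated genes, 6 had an end summit and 2 reached 20-fold. KCNN3 had 128-fold and KCNT2, a sodium-activated channel, had 34.6, but the other 4 with a summit ran from 5.51 to 15.7 and the median was 9.91. KCNN4, the intermediate-conductance channel that dries out red cells and is used by activated lymphocytes, had 12.7-fold (12.03 to 13.5) at its start, while a peak of 28.6-fold with its summit 1158 bp outside the gene covered its 3′ end. KCNMA1, the large-conductance channel, had 5.51-fold (5.05 to 6.01), and KCNN2 had 7.09. KCNN1 and the sperm channel gene KCNU1 had no end summit. Within KCNN the values thus ran from no summit at KCNN1 to 128-fold at KCNN3.

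Of the 16 inward rectifiers, 12 had an end summit and 3 reached 20-fold, with a median of 7.41. KCNJ2, which sets the resting voltage in many cells, was highest at 84.5-fold (82.6 to 86.4), under a peak that also covers an end of the antisense RNA gene KCNJ2-AS1. KCNJ11, the pore of the ATP-sensitive channel, had 46.3-fold and KCNJ10, a glial and kidney channel, had 21.8. The G protein-gated channel genes were lower, at 13.3 for KCNJ6, 8.86 for KCNJ3, 7.82 for KCNJ5 and 1.87 for KCNJ9. KCNJ12 (8.21) and KCNJ18 (2.35) are near-identical copies, and the handling of reads that match both is not given in the sources used here, so their values are uncertain. KCNJ8, a vascular ATP-sensitive channel, had 9.17-fold, KCNJ4 6.99 and KCNJ14 3.29. KCNJ1, KCNJ13, KCNJ15 and KCNJ16 had no end summit.

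Of the 15 two-pore genes, 11 had an end summit and 6 reached 20-fold, with a median of 10.8. Behind KCNK5, KCNK16 and KCNK17 shared a single summit of 54.3-fold (52.9 to 55.8) on chromosome 6, at the start of KCNK17 and the 3′ end of KCNK16. No summit lay within 1 kb of the 5′ end of KCNK16, but another listed start just inside that end had 17.1-fold. Counted for the nearest end only, KCNK17 had no end summit. KCNK7 had 34.2-fold at its 3′ end, at a summit shared with EHBP1L1, but 3.49-fold at its start. KCNK12 had 27.5-fold, and KCNK6, a channel known from macrophages, had 21.6. Of the acid-sensitive channels, KCNK3 had 15.6-fold and KCNK9 4.01. KCNK15 had 10.8-fold and KCNK1 5.05, and the lowest value in the subfamily was 1.97-fold at KCNK10. KCNK2, KCNK4, KCNK13 and KCNK18 had no end summit.

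Among the partner genes, KCNAB3 had 44.1-fold beside the 201-fold of KCNAB2, at a summit shared with TRAPPC1, and KCNAB1 had no end summit. KCNE3, a single-span partner of KCNQ1 and other channels, had 44.7-fold (43.4 to 46.1) and KCNE4 had 9.20, while KCNE1 and KCNE2 had none. Of the calcium-binding partners of KCND channels, KCNIP2 had 28.8-fold, KCNIP1 22.6, KCNIP4 13.01 and KCNIP3 none. The pore genes they bind, KCND3 and KCND2, had 12.4- and 14.8-fold. Of the β subunits of the large-conductance channel, KCNMB4 had 32.5-fold, KCNMB3 25.5, KCNMB1 8.58 and KCNMB2 3.14. KCNRG, which can bind KCNA channels, had 13.6-fold at a summit inside TRIM13 and the RNA gene DLEU2.

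**Figure D2:**
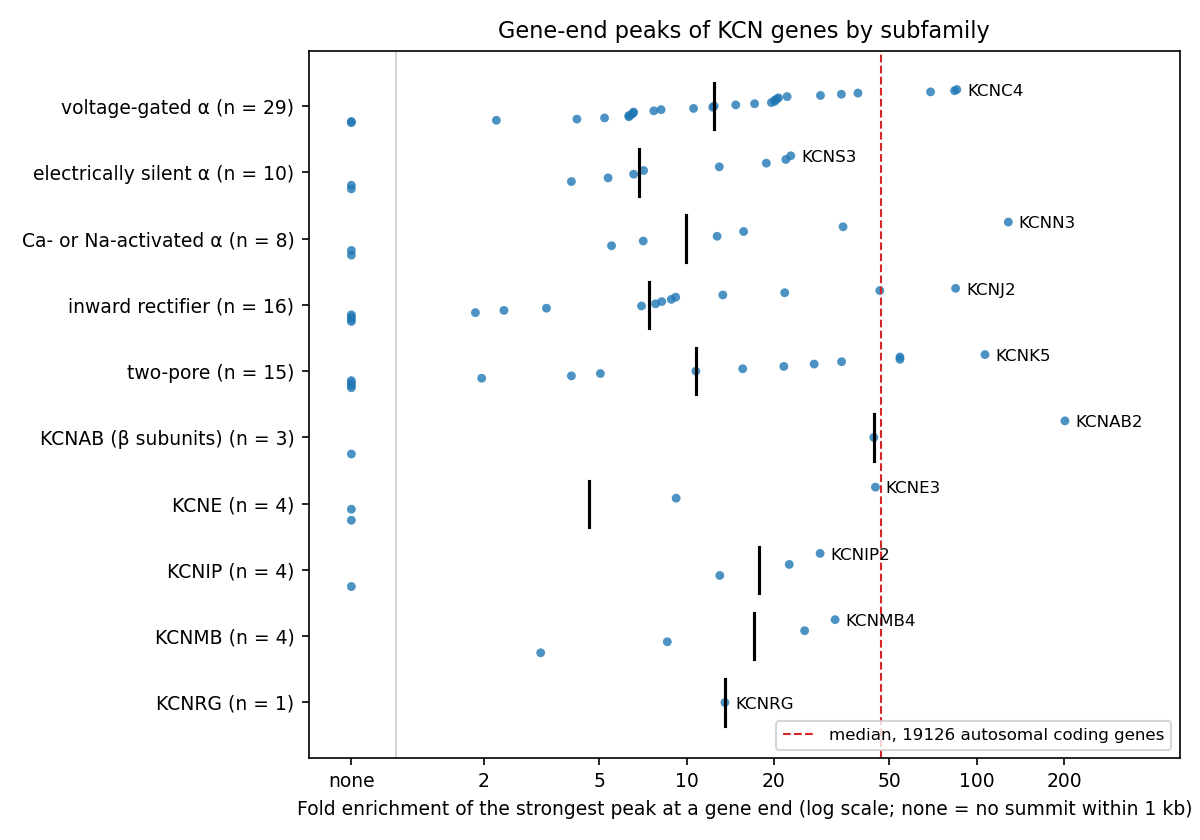
Fold enrichment of the strongest peak with a summit within 1 kb of a gene end (horizontal axis, log scale) for each of the 94 members, by subfamily (rows), with black bars for the subfamily median and a red dashed line for the coding median of 46.9. The highest member of each row is named, and 18 members without an end summit are drawn at the left. KCNAB2, KCNN3 and KCNK5 are the 3 points above 100-fold, and 9 members lie to the right of the red line.

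The 18 genes without an end summit were not all closed. In 7 of them a peak covered an end while its summit lay further off: KCNN1 (85.9-fold), KCNJ1 (53.5), KCNE1 (38.6), KCNK4 (33.9), KCNH8 (30.6), KCNG3 (26.6) and KCNK13 (25.4). The summits nearest to KCNG3 and KCNN1, for instance, lay 1094 and 1075 bp from an end, just outside the window. In 6 of the 18, an inner start listed in the promoter table had a summit, and the highest was 33.1-fold at KCNIP3, a calcium sensor that also acts as a repressor of transcription. The other 5 were KCNAB1 (7.12), KCNK2 (6.14), KCNN1 (5.52), KCNK4 (5.01) and KCNE1 (3.72). Neither was found for 8 members: KCNA10, KCNE2, KCNJ13, KCNJ15, KCNJ16, KCNK18, KCNU1 and KCNV2. KCNU1 is not in the promoter table, so only its ends were examined. Of these 8, KCNV2 had a summit of 33.5-fold 1882 bp from an end, KCNE2 one of 29.3-fold 1978 bp from an end, and KCNJ15 a body peak of 55.6-fold. The same shares were not counted over the 3118 coding genes without an end summit, so these counts cannot be called high or low.

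The promoter table gives the strand of 70 members. Of these, 52 (74.3%) had a summit within 1 kb of the start, against 78.6% of 15101 coding genes with a strand, and 20 (28.6%) had a start peak of at least 20-fold against 60.1%. At the 3′ end, 14 members (20%) had a summit against 35.6%. The start held the stronger peak in 50 members (71.4% against 73.8%) and the 3′ end in 3 (4.29% against 9.83%). These 3 were KCNK16 and KCNK7, above, and KCND3, with 12.4-fold at the 3′ end and 10.8 at the start. An end summit was shared with another coding gene in 8 of 76 members (10.5%) against 22.7%.

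CpG-rich starts are usually open in many cell types, and the CpG observed-to-expected ratio in the 250 bases before the most upstream listed start had a median of 0.596 in the 70 members and 0.739 in 15101 coding genes. A ratio of at least 0.6 was found in 34 members (48.6%) against 63.8%. Among these CpG-rich starts, 13 of 34 members (38.2%) reached 20-fold against 81.6% of coding genes, and the median start fold was 11.9 against 92.8. The 4 CpG-rich members without a start summit were KCNG3, KCNH8, KCNK13 and KCNN1. Each had an end under a peak, of 26.6-, 30.6-, 25.4- and 85.9-fold. In KCNK13 that end is the start, while for the others the 2 ends were not told apart. Among the CpG-poor starts, 8 of 36 (22.2%) reached 20-fold against 25.2%, with medians of 4.43 and 2.24. KCNIP3, among the CpG-rich starts with a ratio of 0.954, counts through its listed start of 33.1-fold, inside the gene. KCNN2 (10.6-fold) and KCNJ4 (9.52-fold) also count through listed starts inside the gene. The starts used for KCNN1, KCNAB1 and KCNJ15, which had no summit, lie inside the gene too. Across the 70 members, the ratio and the start fold had a Spearman rho of 0.35, against 0.56 across coding genes. Genes are not independent replicates and neighbouring genes share peaks, so both are descriptions.

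**Figure D3:**
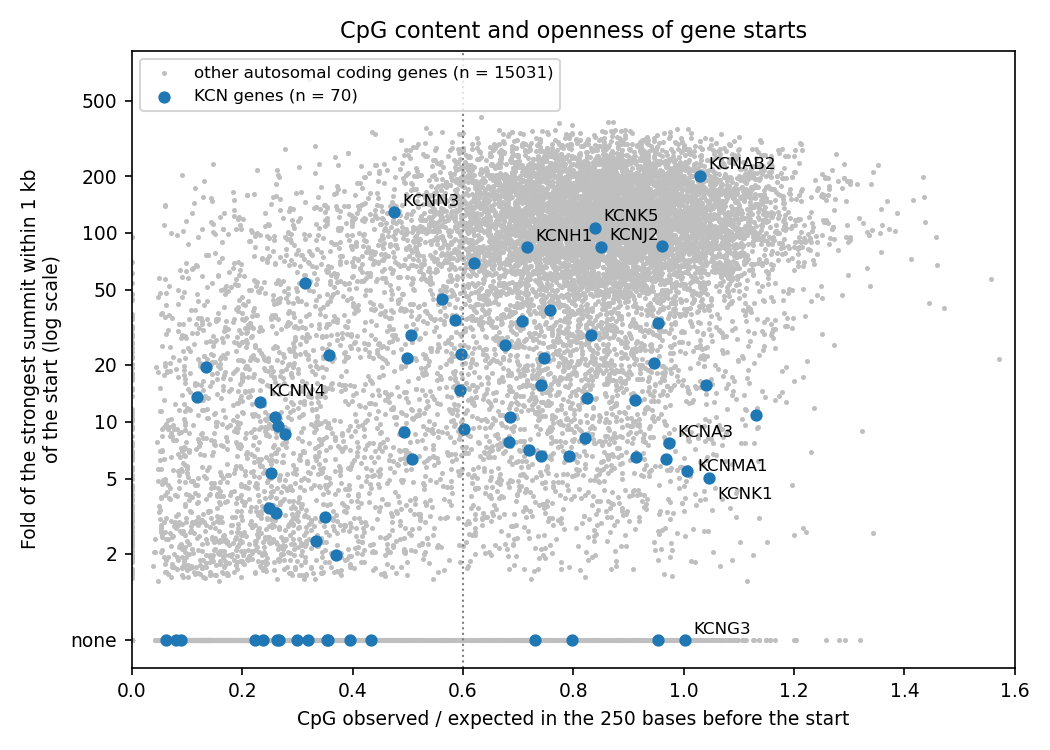
CpG observed-to-expected ratio in the 250 bases before the start (horizontal axis) and the fold of the strongest summit within 1 kb of that start (vertical axis, log scale), for 70 KCN genes (blue) and other autosomal coding genes (grey). Most grey points right of the dotted line at 0.6 lie above 20-fold, while KCNA3, KCNMA1 and KCNK1 lie under 10-fold there. KCNG3 has no summit within 1 kb, though a peak of 26.6-fold covers an end of it.

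A further set of windows is shown to set CpG-rich starts beside CpG-poor ones: KCNMA1 (chr10:77637809-77638058, minus strand) and KCNG3 (chr2:42493983-42494232, minus strand) are CpG-rich with a weak or no start summit, and KCNN4 (chr19:43780974-43781223, minus strand) and KCNJ13 (chr2:232776566-232776815, minus strand) are CpG-poor. Capitals again mark motif matches: GC boxes (GGGCGG, or CCGCCC on the other strand), an E-box (CACGTG) in KCNN4 and a TATA box (TATAAA) in KCNJ13.
KCNMA1: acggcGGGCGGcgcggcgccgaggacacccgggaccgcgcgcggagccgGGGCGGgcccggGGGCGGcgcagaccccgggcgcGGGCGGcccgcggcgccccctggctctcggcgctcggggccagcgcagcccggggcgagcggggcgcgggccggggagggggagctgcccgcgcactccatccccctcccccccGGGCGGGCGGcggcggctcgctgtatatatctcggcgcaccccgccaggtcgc
KCNG3: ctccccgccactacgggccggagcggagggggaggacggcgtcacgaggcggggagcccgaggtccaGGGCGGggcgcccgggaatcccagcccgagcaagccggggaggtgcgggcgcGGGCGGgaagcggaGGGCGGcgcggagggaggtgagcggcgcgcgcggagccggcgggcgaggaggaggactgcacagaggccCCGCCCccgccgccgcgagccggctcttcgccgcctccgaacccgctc
KCNN4: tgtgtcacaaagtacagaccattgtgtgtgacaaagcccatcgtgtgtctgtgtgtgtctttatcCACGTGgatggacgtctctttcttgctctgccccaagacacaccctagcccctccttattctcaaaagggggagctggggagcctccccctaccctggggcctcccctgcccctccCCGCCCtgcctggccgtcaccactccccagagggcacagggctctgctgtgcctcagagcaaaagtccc
KCNJ13: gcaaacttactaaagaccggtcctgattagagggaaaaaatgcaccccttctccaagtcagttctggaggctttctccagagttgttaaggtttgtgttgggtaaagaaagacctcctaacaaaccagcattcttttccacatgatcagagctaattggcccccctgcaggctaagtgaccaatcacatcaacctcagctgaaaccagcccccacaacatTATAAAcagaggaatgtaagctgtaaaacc
KCNMA1 had a ratio of 1.01 and 6 GC boxes and KCNG3 a ratio of 1.00 and 4 GC boxes, with 5.51-fold and no start summit. A peak of 26.6-fold with its summit outside the 1 kb window covered an end of KCNG3. KCNN4 had a ratio of 0.231 and 12.7-fold. KCNJ13 had a ratio of 0.0801 and no summit.

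Motifs were searched on both strands in the same 250 bases. A GC box (GGGCGG) was present in 39 of 70 members (55.7%) and 56.1% of all 15101 windows, and a TATA box (TATAAA) in 7 (10.0%) and 9.42%. The E-box CACGTG, the sequence that MYC and its partner MAX can bind, was present in 3 members (4.29%), KCNN4, KCND2 and KCNH4, against 7.76%. The GATA motifs AGATAA and TGATAA were each present in 2 (2.86%) against 6.95% and 4.89%, the ETS motif CCGGAAG in 2 (2.86%) against 11.9%, and the AP-1 motif TGANTCA in 3 (4.29%) against 4.95%. A match is a description of the letters and not of binding.

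More than 1 kb inside both ends, the members held 1101 body peaks with a median fold of 3.17, against 3.20 for coding gene bodies. A body peak of at least 20-fold was found in 38 members (40.4%) against 35.3%, and 11 members had no body peak (22.7% of coding genes). Members were longer, with a median of 40.6 kb against 24.5 kb, and the 20-fold comparison changed direction with length. Over 100 kb the share was 46.7% against 68.7%. It was 46.7% against 43.9% from 20 to 100 kb and 29.4% against 15.3% under 20 kb. In 52 members (55.3%) the strongest body peak exceeded the end peak, against 29%. That count depends on the end peak as much as on the body peak.

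KCNQ1 held 83 body peaks. The strongest was 140-fold on chromosome 11 (2836186 to 2839981), followed by 98.5-fold with a summit 145 bp from an end of KCNQ1OT1, the imprinted antisense RNA gene that lies within KCNQ1. Its end peak was 20.1-fold, so the strongest peaks of this gene lay inside it.

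KCNIP2 held body peaks of 103-, 76.6- and 41.4-fold and KCNIP1 one of 85.2-fold, 4758 bp after its start. In KCNAB2 a body peak of 75.2-fold and 6100 bp lay 33579 bp after the start. KCNH2 held the widest, 11646 bp at 66.3-fold and 10976 bp at 33.3-fold. KCNN3 reached 63.2-fold, KCNE3 61.8 and KCNN1 59.6 inside the gene. KCNN4 held 54.5- and 48.5-fold peaks at 6383 and 3267 bp after its start, both above the 12.7-fold peak at the start itself. KCNK13, a channel of microglia, had no end summit but a body peak of 52.5-fold.

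**Figure D4:**
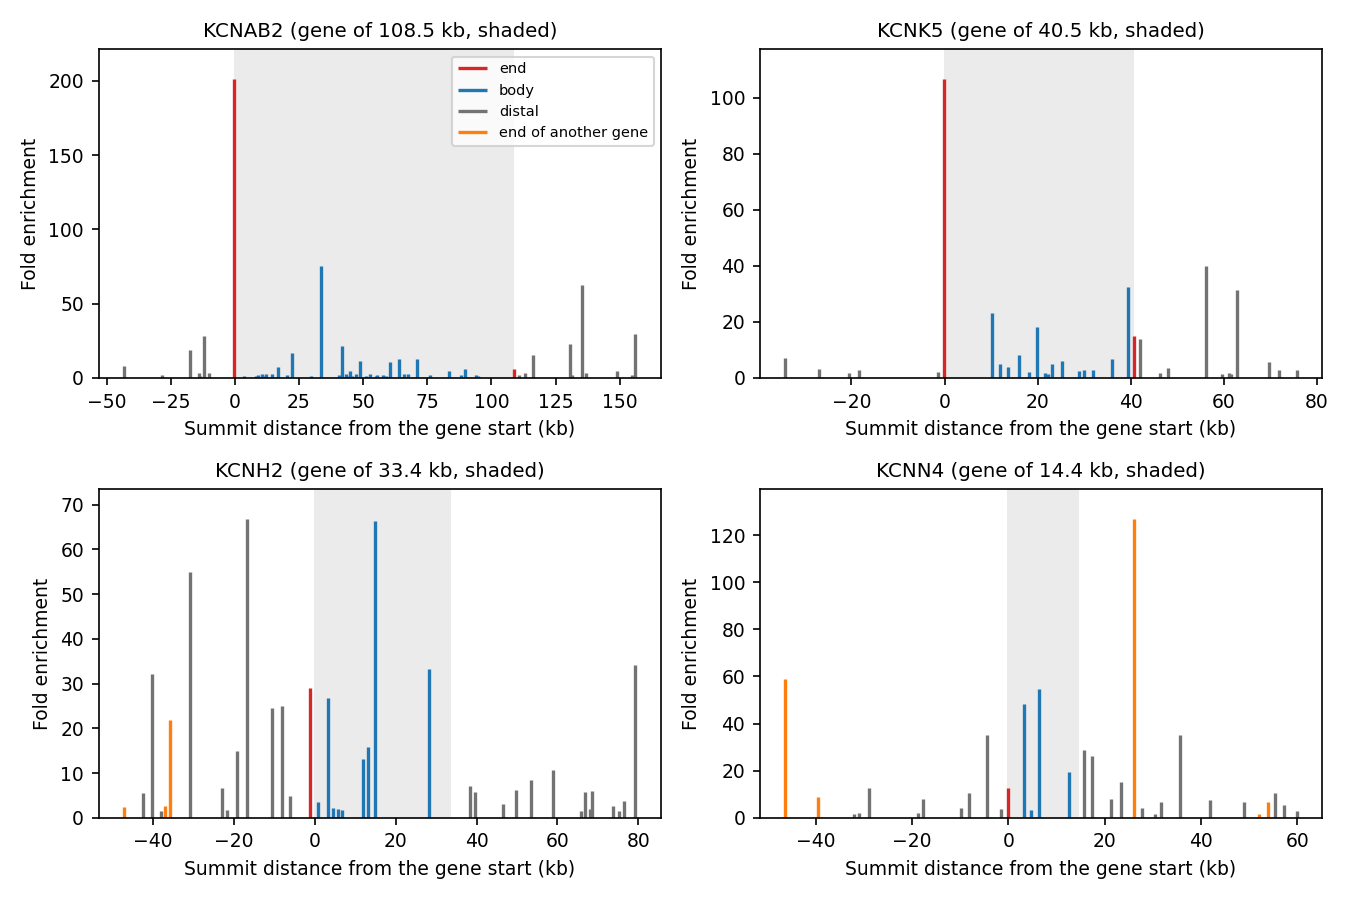
Peaks around KCNAB2, KCNK5, KCNH2 and KCNN4: each line is a peak at the distance of its summit from the gene start along the direction of transcription (kb), with its fold enrichment as height, coloured by class, and the gene is shaded. The start peak is the highest in KCNAB2 (201-fold) and KCNK5 (107-fold), while in KCNH2 (66.3 against 28.9) and KCNN4 (54.5 against 12.7) the highest peak within the gene lies in its body.

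Long members held fewer body peaks per length than long coding genes. Members of 20 to 100 kb had a higher median density than coding genes of their length, but nearly the same density when summed. In the 72 members with a body of at least 10 kb the median was 11.4 peaks per 100 kb, against 14.04 in 13049 coding genes. It was 8.20 against 11.4 in genes over 100 kb (30 members) and 18.9 against 14.5 from 20 to 100 kb (30 members). Under 20 kb it was 19.3 against 17.8, in only the 12 members of that class with a body of at least 10 kb. With peaks and body lengths summed over a class, the density was 8.03 against 11.3 over 100 kb. From 20 to 100 kb it was 16.8 against 16.4. The densest members were KCNH3 (69.3), KCNK17 (59.6), KCNK5 (39.0), KCNE3 (37.4) and KCNAB2 (34.7). KCNJ3, KCNMB1, KCNA3 and KCNJ18 had none. KCNIP4, the longest member at 1220167 bp, held 33 body peaks (2.71 per 100 kb), while KCNMA1, at 768207 bp, held 91 (11.9 per 100 kb). Among members, density and length had a rho of -0.45, against -0.15 among coding genes.

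As a share of the whole gene, a median of 11.2% lay under peaks, against 13.01%. More than 50% did in 9 members (9.57%) against 12.5%: KCNK7 (86.0%), KCNH2 (76.2%), KCNE3 (73.4%), KCNK16 (70.0%), KCNK5 (64.5%), KCNJ11 (62.6%), KCNH3 (60.0%), KCNN4 (59.9%) and KCNIP2 (56.7%). KCNH2 and KCNK5, at 33361 and 40505 bp, were the longest of these.

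Around the genes, distal peaks were about as dense as around other genes. Distal summits lay within 50 kb outside a gene and over 1 kb away from the ends of all coding genes. By that count, the median member had 13.5 per 100 kb of flank (interquartile range 7 to 19) against 14 (9 to 20). A distal peak of at least 50-fold was found for 29 members (30.9%) against 35.5%. The strongest distal peak exceeded the end peak in 75 members (79.8%) against 49.7%, a count that depends on the end peak as much as on the distal peak. The 1283 assignments covered 1218 distinct peaks, since neighbouring members share flanks, and 19 members lay in 8 clusters with gaps under 200 kb.

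Distal density was highest at KCNK7 (34 per 100 kb), KCNK16 (33), KCNMB1 (31), KCNK17 (28) and KCNJ1 (27), with 25 each at KCNH2 and KCNRG, and KCNC2 had 0. KCNMB1 lies inside KCNIP1, so its distal peaks include body peaks of KCNIP1. KCNJ1 had no end summit, yet 8 body peaks (29.3 per 100 kb) and 27 distal ones. The strongest distal peaks lay inside other genes: 234-fold near KCNJ14 in LMTK3, 192-fold near KCNH7 in GCA, 182-fold near KCNK6 in YIF1B, 179-fold near KCNG3 in COX7A2L, 142-fold near KCNK7 in MAP3K11 and 112-fold near KCND3 in INKA2. The list does not say which gene, if any, such a peak acts on.

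**Figure D5:**
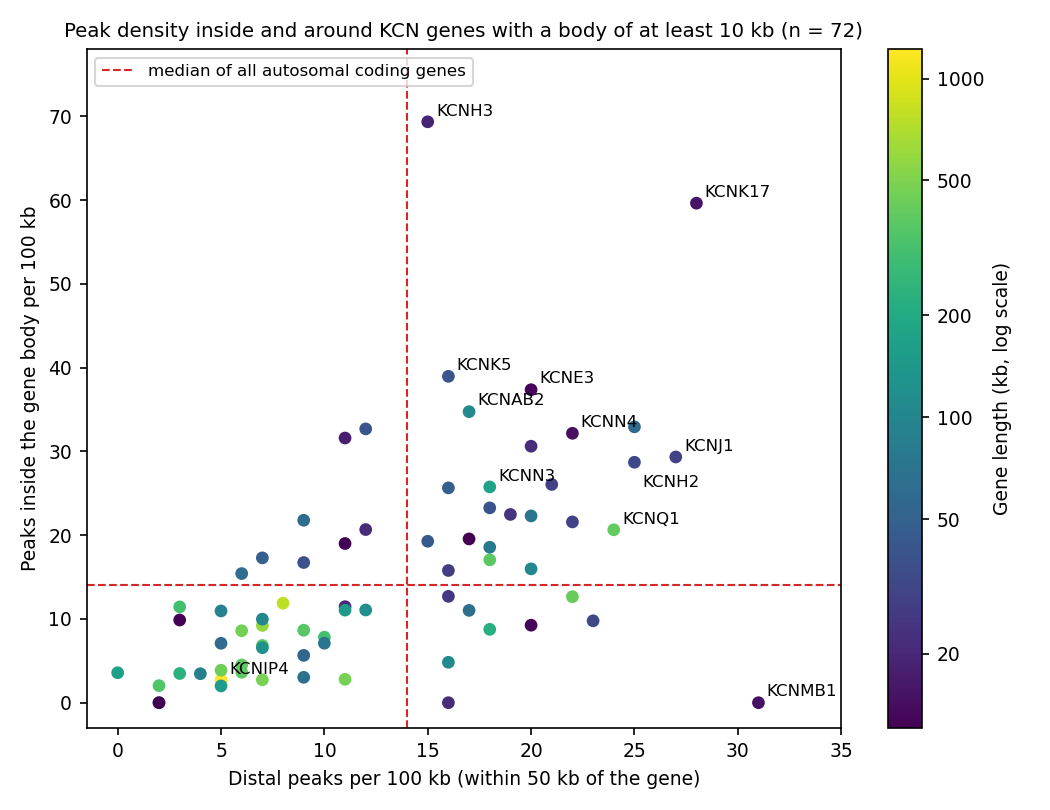
Distal peaks per 100 kb of flank (horizontal axis) and body peaks per 100 kb of gene body (vertical axis) for the 72 members with a body of at least 10 kb, coloured by gene length, with dashed lines at the coding medians of 14 and 14.04. KCNH3 and KCNK17 have the densest bodies, KCNMB1 has 31 distal and no body peaks, and KCNIP4 is the longest gene.

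Body and distal density rose together, with a rho of 0.63 across the 72 members and 0.52 across coding genes. The end fold and the distal density were related less closely, with a rho of 0.16 across 94 members and 0.24 across coding genes. Neighbouring genes share flanks and all points share 1 pooled library, so these are descriptions.

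Members known in blood cells spanned most of this range. KCNAB2, KCNK5 and KCNJ2 were open at the start (201-, 107- and 84.5-fold). The KCNAB2 summit lay nearer to an end of NPHP4, and counted for the nearest end only it left KCNAB2 with 6.31-fold. KCNJ2 had nothing above 9.43-fold within 50 kb and a single body peak of 1.96-fold. KCNE3, KCNH2, KCNQ1 and KCNN4 combined moderate end peaks with stronger peaks inside the gene. KCNE1, a partner of KCNQ1, had no end summit but a 38.6-fold peak 1417 bp after its start that also covered that start. KCNA3 had a weak start peak and no body peak, and its strongest distal peak, 46.6-fold, lay inside KCNA2, 33949 bp away. KCNMA1 held 4 body peaks over 20-fold, the highest of 30.8-fold, each far from its 5.51-fold start. KCNK6 and KCNRG had 21.6- and 13.6-fold at the start and no body peak above 5.42-fold. KCNK13 had no end summit but a body peak of 52.5-fold.

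Other ion transport genes were measured in the same way. Over all coding genes the share at 20-fold was 60.2% and the median 46.9. The 13 voltage-gated sodium channel genes had 7 end peaks of at least 20-fold (53.8%) and a median of 21.3. The 25 calcium channel genes had 5 (20%) and a median of 5.26. The 32 potassium transport partners outside the KCN symbols had 15 of at least 20-fold (46.9%). Their median of 9.06 was close to the KCN median of 9.19, but 40.6% of them lay above the coding median against 9.57% of KCN genes. At 100-fold or more were 6 of them (18.8%), against 3 of the 94 KCN genes (3.19%) and 30.2% of coding genes. Among these were the kinase gene WNK1 (163), the pacemaker channel gene HCN3 (140), the sodium pump subunit gene ATP1B1 (115) and the lysosomal channel gene TMEM175 (116).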

How the data were processed

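ATAC-seq libraries were made from 50000 nuclei each, with 45 minutes of transposition and paired 75-nucleotide reads, per the labels' protocols. Per the submitters' processing notes, the tools included Picard 2.2.4, Bowtie2 2.2.8 and Trim Galore 0.6.5, with hg38 and GRCh38.p13 as builds. The names of the deposited peaks include MACS 2.1.0 and GENCODE 36. Duplicate and mitochondrial filters, the shift of reads for the transposase and the libraries pooled are not given in the sources used here. Used from the deposited list were the positions, the summits, the fold enrichment (a linear ratio to background) and the −log10 p-value. From the deposited fold and p, a constant background of 93.5 follows, with 100% of 243585 pileups under 1000 whole within 0.1. Such a background leaves copy number and mappability uncorrected. Depth per library is unknown.

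Gene coordinates and starts came from RefSeq tables of GRCh38.p14, whose promoter table matched 70 of 94 members. End, body and distal peaks were counted by summit as defined in the report, with a body of at least 10 kb for densities, using Python 3.11.15, numpy 2.4.6, pandas 2.3.3, scipy 1.17.1 and matplotlib 3.10.9. Start comparisons use the gene's 5′ end, and the CpG and motif comparisons the most upstream listed start. The counting was tested on simulated peaks. No test was made, since the list holds 1 pooled value per peak. Named genes are the 10 highest end folds, each subfamily's highest member and its members without a summit, the 6 with the densest or strongest body and distal peaks, 13 members known in blood cells and neighbours sharing a named summit; others were named after their values were seen. Some genes that meet this rule are not reported here. The members and lists were chosen with earlier results of these data known. Alternatives changed the window to 0.5 or 2.5 kb, the peaks to the more significant 50%, the summit to any overlap, the end to the nearest coding gene or the 5′ end, the body margin, the flank to 20 or 100 kb, and left out summits inside other coding genes.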

Additional observations from a re-analysis of the deposited data

How the results depend on the processing

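Of 110 values of the main results under alternatives, 10 changed direction against all coding genes, 8 moved and 92 did neither. A share or median moved if it left its 95% interval over genes. A body count or mean density moved if it changed by more than a set ratio. Body counts have no coding value and so no direction. The intervals of subfamilies with 3 or 4 genes were wide, for instance 9.43 to 99.2% for KCNAB, so their shares could hardly move. The lower frequency of strong end peaks kept its direction under every alternative listed: at 2.5 kb, 46.8% of members reached 20-fold (67.8% of coding genes) with a median of 17.4 (58.3), and with any overlap 44.7% (67.0%) with a median of 15.2 (59.0). The share with any end summit turned from below to above that of coding genes at 2.5 kb (94.7% against 91.1%), with any overlap (89.4% against 88.3%) and with the nearest end only (79.8% against 78.3%). KCNAB, with 3 genes, fell below the coding share of 20-fold peaks at 2.5 kb (66.7%), with any overlap (66.7%), with the nearest end only (33.3%) and at the 5′ end (50.0% of 2), and KCNE rose above it at 2.5 kb (75.0%). The more significant 50% of peaks left 514 body peaks, a median body density of 5.45 (6.43), a mean distal density of 6.94 (7.26) and a median of 6.5 (7). With distal summits outside every coding gene, the mean (8.17 against 7.56) and median (7 against 6) of members lay above those of coding genes. The cause of these changes was not tested.

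No paired analysis was possible because the list names no library, and leave-one-out settings were not run for the same reason. A peak in the pool need not be present in each library. Counting error is small beside the folds compared, but differences between cultures, days and treatments are not covered by any interval printed here. Peaks near another gene's end, the 1 kb window and genes with several starts limit the assignment of a peak to 1 gene.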

Other observations

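Potassium channel genes and RNA genes outside the rule were measured in the same way. The X-linked KCND1, a voltage-gated pore gene, had an end peak of 20.7-fold and KCNE5 one of 9.55-fold. Of 31 long noncoding RNA genes with a KCN symbol, 20 had an end summit (64.5%), 8 reached 20-fold and the median was 5.30. The shares over all long noncoding RNA genes are not given here, so these counts cannot be called high or low. The highest was KCNK4-CATSPERZ, a readthrough RNA gene, at 241-fold, beside KCNK4, which had no end summit. KCNIP2-AS1 followed at 238-fold, beside the 28.8-fold of KCNIP2. Both peaks exceeded every end, body and distal peak counted for the neighbouring channel gene. Since distal peaks leave out summits within 1 kb of a coding gene end, both lay that close to an end of another coding gene. Neither value can therefore be given to the RNA gene alone. KCNQ1OT1 had 98.5-fold at an end inside KCNQ1. KCNC4-DT, KCNJ2-AS1, KCNH1-IT1 and KCNQ5-DT had the same end peak as KCNC4 (85.3), KCNJ2 (84.5), KCNH1 (83.8) and KCNQ5 (34.1), so these 4 add no value of their own. KCNIP1-AS1, inside KCNIP1, had 29.1-fold.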
